A study of Mus musculus with 10 samples.

Results

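Brown adipose tissue releases signaling proteins into the blood and onto its own nerves, vessels and stroma, and 10 genes for such factors were followed here in interscapular brown fat (iBAT): Nrg4, Bmp8b, Angptl8, Slit2, Metrnl, Cxcl14, Il6, Mstn, Ependymin (Epdr1 in the annotation) and Pltp. They were chosen by name as factors that brown fat is known or proposed to secrete, but with earlier results of these data known. Each matched 1 of the 41249 gene identifiers in the deposited tables. 7 of the 10 genes lay above the filter on low counts, a mean over all mice above 1 CPM (counts per 1000000 counts of the library), which 13739 genes passed. Bmp8b, Il6 and Mstn lay below it.

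Whole iBAT was sequenced from 5 Axl KO and 5 wild-type (WT) male mice, 1 library per mouse, and the question asked of these 10 genes was whether their transcripts differ when the receptor tyrosine kinase AXL is missing from the whole body. The Axl KO mice carry the constitutive tm1a "knockout-first" allele, in which a trapping cassette inserted into Axl interrupts its transcript in the whole body, and the WT mice were littermates. Both groups received a high-fat diet (HFD) for 24 weeks from an age of 6 to 8 weeks, per the series record. The study itself gives a slightly longer diet for these libraries, and its methods give a somewhat later start. The model does not separate AXL of brown adipocytes from AXL of other cells.

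Depth was 5952427 to 9580215 counts in WT and 5431014 to 8214841 in Axl KO mice. Axl itself was at 43.2 ± 5.86 CPM in WT and 1.57 ± 0.647 CPM in Axl KO mice (SD, n = 5 each), with every Axl KO mouse below every WT mouse (log2 fold change -4.77, SE 0.20, edgeR adjusted p = 1.09e-07). The 12 brown adipocyte markers checked all passed the filter in this tissue, and Ucp1, the uncoupling protein that defines the cell type, lay between 2996 and 7648 CPM in the 10 mice. Every value is an average over a tissue that also holds vessels, nerves, stroma and immune cells, so that fewer cells of a type and less RNA per cell cannot be told apart.

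The factors work by different routes. NRG4 is an EGF-like ligand of the receptor ERBB4 that acts on the liver, BMP8B is a BMP-family ligand that acts on brown adipocytes and on the sympathetic nerves and vessels around them, and myostatin (Mstn) is an activin-type inhibitor of muscle growth. CXCL14 and IL-6 recruit or instruct immune cells, METRNL acts on macrophages and adipocytes, and SLIT2 is a guidance protein whose C-terminal fragment has been described as thermogenic. ANGPTL8 modulates lipoprotein lipase, the enzyme with which fat takes up circulating triglyceride, PLTP carries phospholipid between lipoproteins, and Ependymin is a small secreted glycoprotein linked to brown adipocyte thermogenesis.

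The promoter windows of the 3 genes with the largest fold changes between genotypes, in either direction, are shown as the regulatory sequence nearest to their starts. The windows run from 250 bases before to 50 bases after the RefSeq start (build GRCm38.p6), on the forward strand: Bmp8b at chr4:123104911-123105210, Angptl8 at chr9:21835260-21835559 and Mstn at chr1:53061390-53061689. Capitals mark matches, on either strand, to 5 short motifs: the cAMP response element TGACGTCA, the nuclear receptor site AGGTCA, the E-box CACGTG, the TATA box TATAAA and the CCAAT box CCAAT.
Bmp8b: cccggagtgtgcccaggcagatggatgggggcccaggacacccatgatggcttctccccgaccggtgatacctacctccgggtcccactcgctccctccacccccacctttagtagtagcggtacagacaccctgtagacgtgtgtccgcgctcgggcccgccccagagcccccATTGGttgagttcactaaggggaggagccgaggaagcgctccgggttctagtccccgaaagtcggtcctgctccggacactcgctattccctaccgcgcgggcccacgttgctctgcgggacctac
Angptl8: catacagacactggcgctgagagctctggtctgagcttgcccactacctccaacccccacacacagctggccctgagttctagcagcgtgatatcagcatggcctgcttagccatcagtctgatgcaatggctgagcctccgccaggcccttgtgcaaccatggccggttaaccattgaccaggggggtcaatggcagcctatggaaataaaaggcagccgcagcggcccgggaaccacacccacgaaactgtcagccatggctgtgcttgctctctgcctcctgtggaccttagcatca
Mstn: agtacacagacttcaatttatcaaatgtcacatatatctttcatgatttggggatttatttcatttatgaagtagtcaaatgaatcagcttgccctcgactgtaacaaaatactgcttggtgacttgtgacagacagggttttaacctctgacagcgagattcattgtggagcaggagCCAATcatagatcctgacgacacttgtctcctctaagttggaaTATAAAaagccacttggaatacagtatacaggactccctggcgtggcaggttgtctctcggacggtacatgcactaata
The Mstn window held a TATA box from -29 to -24 and a CCAAT box from -72 to -68 relative to the start. The Bmp8b window held a CCAAT box on the reverse strand from -76 to -72, and the Angptl8 window held no match. Over the windows of all 10 genes, 4 held CCAAT, 3 TATAAA, 2 AGGTCA and 0 each TGACGTCA and CACGTG. Among the 32544 distinct windows of the RefSeq table, CCAAT was in 37.4%, AGGTCA in 16.2%, TATAAA in 13.6%, CACGTG in 7.17% and TGACGTCA in 1.80%.

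The 10 genes spanned more than 3 orders of magnitude in abundance. Per length of merged exons (CPM per kb), the mean over the 10 mice was 42.4 for Angptl8, 35.8 for Nrg4, 24.9 for Pltp, 9.24 for Cxcl14, 4.01 for Metrnl and 3.10 for Epdr1. Mstn (0.194), Bmp8b (0.191), Slit2 (0.0455) and Il6 (0.00874) followed far behind, all in CPM per kb. In WT mice, Angptl8, Nrg4 and Pltp stood above 94.4, 92.3 and 89.1% of all tested genes on this scale, Cxcl14 above 71.7%, Metrnl above 48.6% and Epdr1 above 41.0%, while no tested gene was below Slit2. The place of Slit2 depends on the filter and on length, since it was at 1.05 CPM in WT mice and has 25433 bp of merged exons. Several neighbors in this order could not be ranked. Angptl8 was above Nrg4 in 5 of 10 mice, Metrnl above Epdr1 in 8, Mstn above Bmp8b in 6, Bmp8b above Slit2 in 7 and Slit2 above Il6 in 9, whereas Nrg4 exceeded Pltp, Pltp exceeded Cxcl14, Cxcl14 exceeded Metrnl and Epdr1 exceeded Mstn in all 10 mice. The length used matters for the order and the levels. Divided by the length of the principal coding transcript in place of the merged exons of all 13 annotated transcripts, Nrg4 stood first at 113 CPM per kb, ahead of Angptl8 at 42.4, and Bmp8b moved ahead of Mstn. With its own principal transcript, Slit2 rose from 0.0455 to 0.116 CPM per kb and kept its place among the 10 genes.

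**Figure D1:**
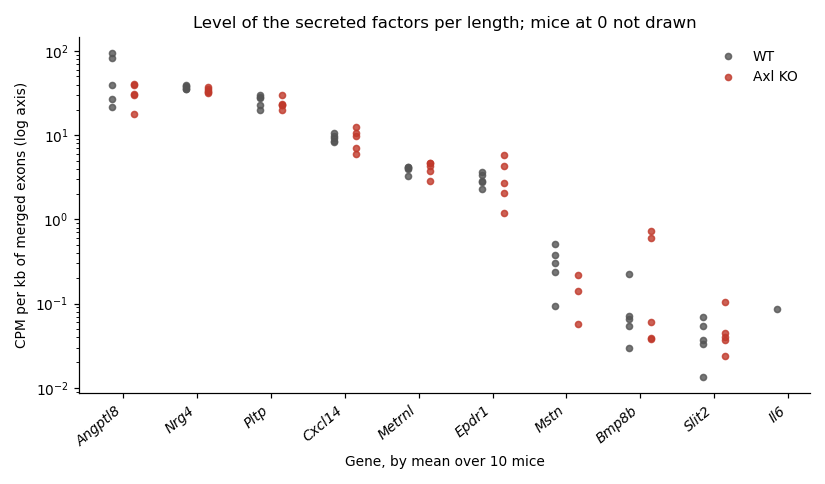
CPM per kb of merged exons (log axis) of the 10 genes, ordered by their mean over 10 mice, with 1 point per mouse (grey, WT; red, Axl KO) and mice without a count not drawn. Angptl8, Nrg4 and Pltp lie between 18.1 and 94.1, and Mstn, Bmp8b, Slit2 and Il6 below 1.

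No difference between Axl KO and WT mice passed the test for any of the 9 genes with more than 2 counts. With edgeR, the 7 genes over the filter had adjusted p-values of 0.611 to 0.978. A value under 0.05 was met by 0 of the 7 and by 0.00728% of all tested genes. 0 of the 7 had an unadjusted p under 0.05, against 8.38% of all tested genes. The groups overlapped for each of the 10 genes, and did not overlap for 1.36% of the genes tested. Of the 7, 3 were higher and 4 lower in Axl KO mice, and their median log2 fold change of -0.028 lay beside a median of -0.00078 over all tested genes. The width of the 95% intervals differed widely between genes: that of Nrg4 ran from -0.25 to 0.017 on the log2 scale. Those of Angptl8 (-1.54 to 0.085) and Slit2 (-0.73 to 1.17) held changes over 1 on this scale.

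**Figure D2:**
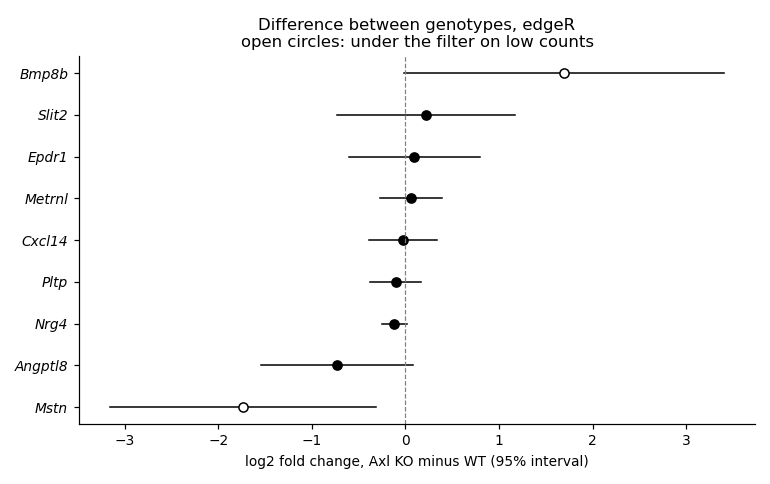
Log2 fold change of Axl KO against WT mice with its 95% interval for 9 of the genes (Il6, with 2 counts in all, was left out), from edgeR over 13739 genes (filled) or, for the genes under the filter, over 23725 genes (open). All intervals but that of Mstn hold 0, and that of Nrg4 is the narrowest. Their center is the fold change that edgeR pulls towards 0, and their SE is from the fold change before that step. The interval of Bmp8b (-0.018 to 3.41) therefore holds 0 although its unadjusted p in edgeR was 0.0458.

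**Figure D3:**
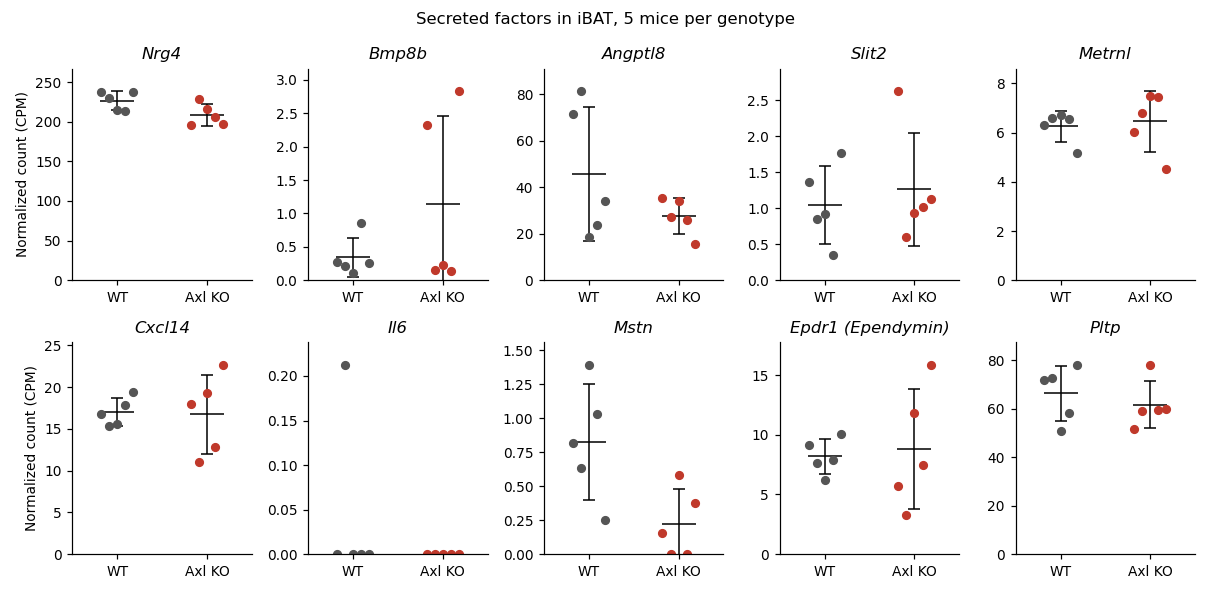
Normalized count (CPM) of each gene in each mouse, with the group mean and SD (bars that would pass below 0 end at the axis, and Il6 has none). Every gene has WT and Axl KO mice in a shared range, and Angptl8, Bmp8b and Epdr1 have a wide spread in 1 genotype.

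Of the growth factor ligands, Nrg4 (ENSMUSG00000032311, chromosome 9, 55220222 to 55326844, reverse strand) was the gene with the most counts, 1043 to 2168 per mouse. Its normalized count was 237, 230.0, 214, 213 and 237 CPM in WT replicates 1 to 5. The values in Axl KO replicates 1 to 5 were 196, 228, 216, 206 and 197 CPM. Axl KO replicates 2 and 3 lay above WT replicates 3 and 4, and the 3 lowest values were all from Axl KO mice. The mean was 226 ± 12.0 CPM in WT and 208 ± 13.8 CPM in Axl KO mice (SD, n = 5 each). In edgeR the log2 fold change was -0.12 (SE 0.062, adjusted p = 0.621), and the two-sided exact permutation test gave p = 0.0635. Nrg4 shares 368 bp of exon with Fbxo22 on the opposite strand, which itself was at 17.4 ± 1.74 CPM in WT and 18.8 ± 2.30 CPM in Axl KO mice (SD, n = 5 each). The strand setting of the counting is not given in the sources used here, so reads in the shared stretch cannot be assigned.

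Bmp8b (ENSMUSG00000002384, chromosome 4, 123105165 to 123132099, forward strand) was nearly silent in most mice and present in a pair of Axl KO mice. In WT replicates 1 to 5 it had 2, 2, 1, 5 and 2 counts. Axl KO replicates 1 to 5 had 15, 1, 2, 1 and 15. The high values in Axl KO replicates 1 and 5, 2.32 and 2.83 CPM, were above every WT mouse, and the other Axl KO mice, at 0.146 to 0.234 CPM, lay within the WT range of 0.116 to 0.861 CPM. The medians were 0.234 CPM in Axl KO and 0.252 CPM in WT mice, while the means were 1.14 ± 1.33 CPM (SD, n = 5) and 0.343 ± 0.296 CPM (SD, n = 5). In the edgeR fit without a filter, over 23725 genes, the log2 fold change was 1.69 (SE 0.81, unadjusted p = 0.0458, adjusted p = 0.709), and the two-sided exact permutation test of the 5 against 5 mice gave p = 0.381. Leaving out Axl KO replicate 5 lowered the log2 fold change to 1.08. Its near-identical relative Bmp8a had at most 1 count in any mouse, and how reads that match both were counted is not given in the sources used here. Bmp8b shares 133 bp of exon with Ppie on the opposite strand (12.5 ± 1.20 CPM in Axl KO and 13.5 ± 1.22 CPM in WT mice, SD, n = 5 each), 339 bp with Gm17244, which had 0 counts, and its span with Oxct2b, which had at most 2.

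Mstn (ENSMUSG00000026100, chromosome 1, 53061640 to 53068079, forward strand) was low in all mice, with most Axl KO values below those of WT mice. In WT replicates 1 to 5 it had 6, 6, 12, 6 and 2 counts, or 32 in all. Axl KO replicates 1 to 5 had 1, 0, 5, 0 and 2, or 8 in all. WT replicate 5, at 0.252 CPM, lay below Axl KO replicates 3 and 5, at 0.584 and 0.377 CPM, and the other WT mice lay above every Axl KO mouse. The mean was 0.827 ± 0.426 CPM in WT and 0.223 ± 0.254 CPM in Axl KO mice (SD, n = 5 each). In the edgeR fit without a filter the log2 fold change was -1.74 (SE 0.68, unadjusted p = 0.0158, adjusted p = 0.709), and the two-sided exact permutation test gave p = 0.0317. That was the lowest among the 10 secreted factors, and the other listed genes were tested in the same way. A count of 0 allows up to 3 counts, which is 0.318 to 0.566 CPM in these libraries. For Mstn, 4 of the 5 Axl KO mice had fewer counts than that.

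Mstn is best known as a product of skeletal muscle, so genes of skeletal muscle were set beside it. The summed level of 20 skeletal muscle genes was 42.4, 18.5, 2102, 765 and 4213 CPM in Axl KO replicates 1 to 5 and 3990, 1042, 4892, 3844 and 1001 CPM in WT replicates 1 to 5. Of the 19 over the filter, 0 had an unadjusted p under 0.05 in edgeR, although all 19 fold changes were below 0 (median log2 fold change -1.05), and none of the 20 was at 0 in every mouse. Across the 10 mice, pooled over genotypes, Mstn and the summed muscle genes gave a correlation on the log2(CPM + 1) scale that did not pass the adjustment (Pearson's r = 0.74, permutation p = 0.0112, adjusted over 18 such correlations 0.133; Spearman's rho = 0.83, permutation p = 0.00372, adjusted 0.067). Without Axl KO replicates 1 and 2, the mice farthest from the median, r was 0.75. With the mean log2(CPM + 1) of the 20 muscle genes, not their sum, as a covariate in the edgeR fit, the log2 fold change of Mstn was -0.94 (unadjusted p = 0.138, adjusted p = 0.739), against -1.74 without it. Without Axl KO replicates 1 and 2, an alternative added after the data were seen, that of Mstn was -1.25 (unadjusted p = 0.085, adjusted p = 0.852 in edgeR).

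Of the cytokines and chemokines, Cxcl14 (ENSMUSG00000021508, chromosome 13, 56288643 to 56296551, reverse strand) had a similar mean in both genotypes. It was at 16.8, 15.4, 15.6, 17.9 and 19.4 CPM in WT replicates 1 to 5. Axl KO replicates 1 to 5 had 17.9, 10.99, 19.3, 12.8 and 22.6 CPM. Axl KO mice held both the highest value and the 2 lowest. The mean was 17.0 ± 1.67 CPM in WT and 16.7 ± 4.76 CPM in Axl KO mice (SD, n = 5 each). In edgeR the log2 fold change was -0.028 (SE 0.17, adjusted p = 0.978).

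Il6 (ENSMUSG00000025746, chromosome 5, 30013114 to 30019981, forward strand) had 2 counts in WT replicate 2 and 0 counts in each of the other 9 mice. It was not detectable at this depth in those mice, and no fold change is given. Metrnl (ENSMUSG00000039208, chromosome 11, 121701544 to 121716306, forward strand) had 24 to 64 counts per mouse. Its normalized count was 6.29, 6.58, 6.72, 6.55 and 5.17 CPM in WT replicates 1 to 5. The values in Axl KO replicates 1 to 5 were 6.03, 6.78, 7.48, 7.44 and 4.53 CPM. The fifth mouse of each genotype was the lowest of its group, and the WT range lay within the Axl KO range. The mean was 6.26 ± 0.629 CPM in WT and 6.45 ± 1.23 CPM in Axl KO mice (SD, n = 5 each). In edgeR the log2 fold change was 0.056 (SE 0.15, adjusted p = 0.939).

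Of the factors that act on lipoproteins, Angptl8 (ENSMUSG00000047822, chromosome 9, 21835510 to 21837347, forward strand) had the largest fold change among the genes over the filter, with 2 WT mice far above the rest. It was at 71.4, 81.4, 18.7, 23.6 and 33.9 CPM in WT replicates 1 to 5. Axl KO replicates 1 to 5 had 35.3, 27.1, 34.0, 25.8 and 15.7 CPM. WT replicates 1 and 2 lay above all Axl KO mice, and WT replicates 3, 4 and 5 lay within the Axl KO range. The mean was 45.8 ± 28.7 CPM in WT and 27.6 ± 7.84 CPM in Axl KO mice (SD, n = 5 each), with medians of 33.9 and 27.1 CPM (log2 fold change -0.73, SE 0.38, edgeR adjusted p = 0.611; two-sided exact permutation test, p = 0.294). Without WT replicate 2 the log2 fold change was -0.41. Angptl8 lies within the span of Dock6 on the opposite strand and shares no annotated exon with it, and Dock6 was at 28.7 ± 6.19 CPM in WT and 26.4 ± 1.83 CPM in Axl KO mice (SD, n = 5 each).

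Pltp (ENSMUSG00000017754, chromosome 2, 164839518 to 164857711, reverse strand) was at 71.7, 72.5, 51.0, 58.2 and 77.9 CPM in WT replicates 1 to 5. The values in Axl KO replicates 1 to 5 were 51.8, 59.0, 77.8, 59.4 and 59.8 CPM. Both genotypes had mice near the lowest and the highest value. The mean was 66.3 ± 11.2 CPM in WT and 61.6 ± 9.66 CPM in Axl KO mice (SD, n = 5 each). In edgeR the log2 fold change was -0.10 (SE 0.13, adjusted p = 0.835), between -0.21 without Axl KO replicate 3 and -0.039 without WT replicate 5. Pltp shares 495 bp of exon with Ctsa, a lysosomal protease gene on the opposite strand, which was at 63.9 ± 3.14 CPM in WT and 64.9 ± 2.66 CPM in Axl KO mice (SD, n = 5 each).

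Slit2 (ENSMUSG00000031558, chromosome 5, 47983138 to 48307733, forward strand) was at the edge of detection, with 2 to 17 counts per mouse and 42 counts in all in each genotype. It was at 1.37, 0.849, 0.927, 0.345 and 1.77 CPM in WT replicates 1 to 5. Axl KO replicates 1 to 5 had 2.63, 0.602, 0.934, 1.02 and 1.13 CPM. The highest value was from Axl KO replicate 1, and the rest of the mice intermingled. The log2 fold change was 0.22 (SE 0.44, edgeR adjusted p = 0.907), with means of 1.26 ± 0.788 CPM in Axl KO and 1.05 ± 0.540 CPM in WT mice (SD, n = 5 each). The log2 fold change was 0.045 without WT replicate 4 and 0.48 without WT replicate 5. Without Axl KO replicate 1, Slit2 fell below the filter and was not tested. In the annotation, 7 short or non-coding genes lie within its span and share no exon with it.

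Ependymin, listed as Epdr1 (ENSMUSG00000002808, chromosome 13, 19591706 to 19619927, reverse strand), had a wider range in Axl KO than in WT mice. It was at 9.17, 7.64, 6.26, 7.92 and 10.1 CPM in WT replicates 1 to 5. The values in Axl KO replicates 1 to 5 were 5.72, 3.31, 11.8, 7.44 and 15.8 CPM. The WT mice lay inside the Axl KO range, which spanned both the lowest and the highest value. The mean was 8.21 ± 1.47 CPM in WT and 8.82 ± 5.00 CPM in Axl KO mice (SD, n = 5 each). In edgeR the log2 fold change was 0.095 (SE 0.32, adjusted p = 0.953). Epdr1 was lowest in the Axl KO mice with the least skeletal muscle RNA (r = 0.73 with the summed muscle genes over 10 mice, permutation p = 0.0148, adjusted 0.133; Spearman's rho = 0.53, permutation p = 0.123, adjusted 0.702), and without those 2 mice, replicates 1 and 2, r fell to 0.16, so the relation rests on them. The log2 fold change of Epdr1 was 0.47 with the mean log2(CPM + 1) of the muscle genes as a covariate (unadjusted p = 0.0635, adjusted p = 0.732 in edgeR) and 0.50 without those 2 mice (unadjusted p = 0.0536, adjusted p = 0.844 in edgeR).

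Ucp1 rises when brown fat is stimulated, and the factors were set against it. Over the 10 mice, r with Ucp1 lay between -0.54 (Nrg4) and 0.60 (Bmp8b) for the 9 genes with more than 2 counts, with adjusted permutation p of at least 0.306 for r and at least 0.305 for Spearman's rho. For Bmp8b, r was 0.60 (permutation p = 0.0614) and rho 0.39 (permutation p = 0.263). It fell to 0.12 without Axl KO replicate 5 and WT replicate 3, so that relation rests on these mice. For Nrg4, r was -0.54 (permutation p = 0.102) and rho -0.68 (permutation p = 0.0339, adjusted 0.305), and without the same mice r was -0.67. With 5 mice per genotype, no correlation was computed within a genotype, and a relation pooled over both can hold a difference between them: Ucp1 was at 5572 ± 1200 CPM in Axl KO and 4128 ± 866 CPM in WT mice (SD, n = 5 each, two-sided exact permutation test, p = 0.0556). The log2 fold change of Ucp1 in edgeR was 0.43 (SE 0.16, unadjusted p = 0.0186, adjusted p = 0.572).

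**Figure D4:**
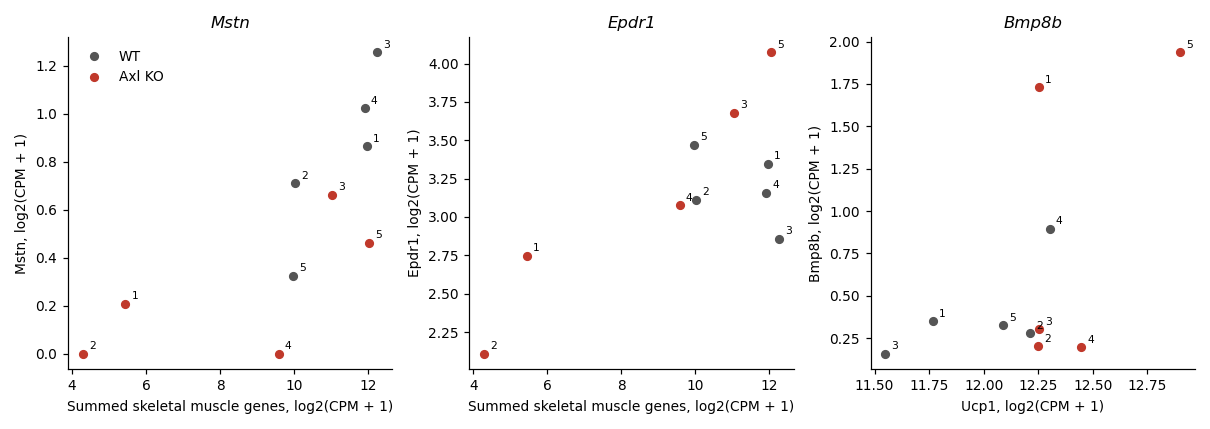
Mstn and Epdr1 against the summed skeletal muscle genes, and Bmp8b against Ucp1, all as log2(CPM + 1), with 1 point per mouse marked by its replicate number (grey, WT; red, Axl KO). The axes do not start at 0. Axl KO replicates 1 and 2 lie far to the left in both muscle panels, and Axl KO replicates 1 and 5 lie above the other mice for Bmp8b.

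Among the factors themselves, Cxcl14 and Epdr1 had the r of largest size (r = 0.84, rho = 0.76 over 10 mice). By r alone, the inverse pair Nrg4 and Bmp8b followed (r = -0.73, rho = -0.28). By rho, Bmp8b and Metrnl (rho = -0.76, r = -0.65) matched the first pair in size, and Bmp8b and Cxcl14 followed (rho = 0.73, r = 0.60). These are given as descriptions of 10 shared libraries, without a test. Among all tested genes, those with the most similar pattern were Map6 (r = 0.94), a microtubule-binding protein gene, and Lyl1 (r = 0.92), a transcription factor gene of blood and endothelial cells, for Nrg4. They were D5Ertd579e (r = 0.91) and Pla2g2d (r = 0.90) for Angptl8, Ddx54 (r = 0.91) and P2rx1 (r = 0.89) for Slit2, and Sp2 (r = 0.94) and Ppp1r7 (r = 0.93) for Cxcl14. For Epdr1 they were Slc25a3 (r = 0.94), the mitochondrial phosphate carrier, and the linker histone gene Hist1h1e (r = 0.94), and for Pltp Arhgef2 (r = 0.96) and Krt79 (r = 0.95). For Metrnl they were B3gntl1 (r = 0.90), which lies 28390 bp away on the same chromosome, and Gm16386 (r = 0.90). With 10 mice and 13739 genes such values are common, and 28 to 211 genes had r over 0.8 with each of the 7.

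The receptors and partners of these factors, 26 genes chosen with earlier results of these data known, gave 0 called and 1 with an unadjusted p under 0.05 among the 23 over the filter (4.35%, against 8.38% of all tested genes), with a median log2 fold change of -0.024. The 1 gene was Robo1, a receptor of SLIT2, at 1.70, 1.66, 1.40, 1.75 and 0.754 CPM in Axl KO replicates 1 to 5 and 3.83, 1.70, 2.43, 2.41 and 1.89 CPM in WT replicates 1 to 5 (log2 fold change -0.72, SE 0.28, edgeR adjusted p = 0.572). The highest value was from WT replicate 1, and 2 Axl KO mice exceeded the lowest WT mouse. The partners with the highest levels were Lpl, lipoprotein lipase (2709 ± 469 CPM in Axl KO and 2423 ± 240 CPM in WT mice, SD, n = 5 each, edgeR adjusted p = 0.705), its inhibitor Angptl4 (315 ± 106 and 344 ± 120 CPM, edgeR adjusted p = 0.916) and the cholesterol exporter Abca1 (293 ± 37.0 and 263 ± 20.1 CPM, edgeR adjusted p = 0.641). Erbb4, named after its values were seen because it is the receptor of NRG4, was at 31.7 ± 7.82 CPM in Axl KO and 39.6 ± 4.37 CPM in WT mice (SD, n = 5 each; log2 fold change -0.32, SE 0.15, edgeR adjusted p = 0.601).

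Of 14 relatives from the same families, 6 passed the filter, 0 were called and 1 had an unadjusted p under 0.05, where 8.38% of all tested genes did, with a median log2 fold change of -0.014. It was Slit3, at 21.6 ± 2.95 CPM in Axl KO and 26.0 ± 3.68 CPM in WT mice (SD, n = 5 each; log2 fold change -0.27, SE 0.11, edgeR adjusted p = 0.572). The most abundant relative was the chemokine gene Cxcl12 at 58.9 ± 10.8 and 50.6 ± 5.99 CPM (edgeR adjusted p = 0.627), and Lbp, a relative of Pltp, was at 5.58 ± 3.22 and 5.63 ± 0.825 CPM (edgeR adjusted p = 0.999).

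Among 20 other secreted factors of brown fat, 15 passed the filter, 0 were called and 3 had an unadjusted p under 0.05, where 8.38% of all tested genes did, with a median log2 fold change of -0.052. Rbp4, a retinol carrier, was at 43.3 ± 13.8 CPM in Axl KO and 28.8 ± 5.13 CPM in WT mice (SD, n = 5 each; log2 fold change 0.58, SE 0.18, edgeR adjusted p = 0.572). Adm, the vasodilator adrenomedullin, was at 1.82 ± 0.359 against 2.99 ± 0.575 CPM (log2 fold change -0.69, SE 0.22, edgeR adjusted p = 0.572), and Vegfb, a vascular growth factor, at 74.5 ± 4.78 against 83.6 ± 5.41 CPM (log2 fold change -0.16, SE 0.064, edgeR adjusted p = 0.572). All 3 groups of values overlapped between genotypes. The most abundant of these factors were close in both genotypes: adiponectin (Adipoq) at 775 ± 89.2 and 753 ± 55.9 CPM, Nampt at 693 ± 94.4 and 624 ± 77.4 CPM, and S100b, a neurotrophic factor for sympathetic fibers, at 267 ± 41.1 and 276 ± 38.2 CPM in Axl KO and WT mice, respectively (edgeR adjusted p 0.700 to 0.933).

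Marker genes of the other cells of the depot gave the background to these values. Of the brown adipocyte markers, 5 of 12 had an unadjusted p under 0.05 in edgeR, all higher in Axl KO mice, where 8.38% of all tested genes had one, and 0 were called. Axl KO and WT mice did not overlap for 2 of the 12, Dio2 and Cox8b, which held for 1.36% of all tested genes. The sum of the 12 lay between 18820 and 23365 CPM in Axl KO and between 17484 and 20174 CPM in WT mice. Fibroblast markers summed to 548 to 897 CPM in Axl KO and 760 to 999.5 CPM in WT mice. Of these 10 markers, 0 were called and 3 had an unadjusted p under 0.05 in edgeR, 2 of them lower and 1, Ly6a, higher in Axl KO mice (8.38% of all tested genes had one), and the median log2 fold change was -0.24. The summed macrophage (161 to 289 and 181 to 272 CPM), endothelial (469 to 600 and 470 to 669 CPM), Schwann cell (96.4 to 122 and 104 to 119 CPM) and erythroid markers (385 to 715 and 475 to 668 CPM) overlapped between Axl KO and WT mice, and lymphocyte markers summed to at most 2.86 CPM in any mouse. Over the filter, 1 of 11 macrophage markers (Trem2, higher in Axl KO mice) had an unadjusted p under 0.05 in edgeR. The same held for 1 of 8 endothelial (Cldn5, lower) and 1 of 6 Schwann cell markers (Cdh19, lower), against 8.38% of all tested genes. None of these 3 was called, and Axl KO and WT mice did not overlap for Cdh19. The part of these cell types in the values of the secreted factors was not tested. For skeletal muscle, the correlations and fits given above do not settle it. The 2 mice with the least muscle RNA were both Axl KO mice, so muscle content and genotype cannot be told apart.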

How the data were processed

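Per the labels and the study's methods, RNA of snap-frozen iBAT was prepared with the TruSeq kit and sequenced; the records name polyadenylated RNA and the methods rRNA depletion. The submitters' processing notes list Trimmomatic 0.36, STAR 2.6.1c and build GRCm38.p5, whereas the methods name Trim Galore and hisat2. The authors deposited raw counts per Ensembl gene, 1 table per mouse, without normalization. The counting tool and its strand setting are not given in the sources used here. Of 41249 identifiers, 41163 matched GENCODE M21 (GRCm38) and 86 did not. The tables of any 2 mice differed by more than sampling noise (mean chi-square per gene at least 5.46 over 45 pairs).

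Counts were normalized with TMM and compared in R 4.3.3 with edgeR 4.0.16 (quasi-likelihood test, mean above 1 CPM, Benjamini-Hochberg adjustment over 13739 genes, threshold 0.05). Genes under the filter were fitted without it over 23725 genes. Single genes were compared on the log2(CPM + 1) scale with two-sided exact permutation tests (252 splits, smallest p 0.00794), and correlations with 100000 permutations, in Python 3.11.15 with scipy 1.17.1. The p-values of edgeR and of the exact tests set the difference between genotypes against the spread between mice. Those of the correlations refer to all mice pooled. Floors of 3 counts cover counting error only. Scripts were tested on simulated data. Alternatives were DESeq2 1.42.0, RLE size factors, filterByExpr, no filter, a robust fit, a replicate block, a skeletal muscle covariate and each mouse left out in turn.

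The members and lists were chosen with earlier results of these data known. Named are the 10 genes, Axl, Ucp1, genes overlapping a member, for each list the genes with an unadjusted p under 0.05 and the 3 with the highest mean CPM, and the 2 genes most correlated with each member over the filter; others are marked. The lists were receptors and partners, relatives, other secreted factors, and markers of brown adipocytes, skeletal muscle, macrophages, fibroblasts, endothelium, Schwann cells, lymphocytes and erythroid cells. Promoter windows came from RefSeq, and all 10 genes matched.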

Additional observations from a re-analysis of the deposited data

Results flagged for a closer look

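In groups of 5 mice, a mouse was singled out when its gap to the nearest other mouse exceeded 0.71 of the range of its group. Of 33 groups examined, 8 held such a mouse. For normally distributed values the rule would single out about 1 in 20, or 1.65. CPM from a few counts are not distributed in that way, so 8 cannot be set against 1.65.

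Among the secreted factors, the highest WT value of Bmp8b was 0.8614 CPM in WT replicate 4, with the nearest at 0.2736 CPM, and it rests on 5 counts. The highest Axl KO value of Slit2 was 2.628 CPM in Axl KO replicate 1, with the nearest at 1.131 CPM, from 17 counts. The lowest WT value of Metrnl was 5.17 CPM in WT replicate 5, with the nearest at 6.292 CPM, from 41 counts. Il6 was at 0.2122 CPM in WT replicate 2, from 2 counts, and at 0 in the other WT mice.

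Among the other genes named, Axl was lowest in Axl KO replicate 4 (0.4376 CPM, from 3 counts, with the nearest at 1.697 CPM). Ucp1 was highest in Axl KO replicate 5 (7648 CPM, with the nearest at 5582 CPM), and Rbp4 was highest in the same mouse (67.13 CPM, with the nearest at 43.03 CPM). Adm was lowest in WT replicate 3 (1.97 CPM, from 17 counts, with the nearest at 3.152 CPM).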

How the results depend on the processing

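For each of the 9 secreted factors with more than 2 counts, 16 or 18 alternatives on the same mice gave a fold change, 156 values in all. None passed the threshold (lowest adjusted p 0.194, for Mstn without Axl KO replicate 3), and 144 kept their direction. Nrg4, Angptl8, Bmp8b, Mstn and Pltp kept theirs throughout. With each mouse left out, Pltp ranged from -0.21 (without Axl KO replicate 3) to -0.039 (without WT replicate 5), and Slit2 from 0.045 (without WT replicate 4) to 0.48 (without WT replicate 5). The log2 fold change of Slit2 reversed to -0.069 with the skeletal muscle covariate and to -0.070 without Axl KO replicates 1 and 2, which hold the least muscle RNA, an alternative added after the data were seen. That of Cxcl14 reversed to 0.13 and 0.095 in the same fits and ranged from -0.15 to 0.090 with each mouse left out, where Metrnl ranged from -0.0062 to 0.15 and Epdr1 from -0.19 to 0.30. In the same 2 fits Epdr1 moved from 0.095 to 0.47 and 0.50 (adjusted p = 0.732 and 0.844 in edgeR), and without the 2 mice Pltp was -0.0096. The numbers did not pair the mice (correlations of the deviations of same-numbered mice -0.36 to 0.37, and 2 of 10 mice closest to their own number). With the replicate number as a replicate block, Epdr1 reversed to -0.0077, the blocked log2 fold change of Axl was -4.77, and edgeR called 1 gene with or without it. DESeq2 called 9 genes, against 1 by edgeR, with 0 secreted factors among them; the cause was not tested. With each mouse left out, between 0 and 1 of the 10 factors had groups without overlap, the 1 being Mstn without WT replicate 5, and Axl ranged from -4.87 to -4.53. For Slit2, filterByExpr gave no value. Without the 2 mice farthest from the median, r with Ucp1 reversed to 0.48 for Metrnl, -0.31 for Cxcl14 and -0.27 for Epdr1, and r with the summed muscle genes reversed to -0.25 for Nrg4, 0.45 for Bmp8b and -0.47 for Pltp. Depth limits Bmp8b, Mstn, Slit2 and Il6, which had at most 17 counts in any mouse.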

Other observations

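The pair of Axl KO mice with the most Bmp8b counts, replicates 1 and 5, also had the highest Elovl3, a fatty acid elongase gene of stimulated brown fat, chosen here after its values were seen. Elovl3 was at 104, 45.2, 25.8, 58.9 and 164 CPM in Axl KO replicates 1 to 5 and at 32.7, 27.2, 5.68, 34.3 and 25.6 CPM in WT replicates 1 to 5.

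Among the other secreted factors and partners, 3 of the following 4 lay under the filter. Lcn2, the iron-binding lipocalin, had 49 counts in all in Axl KO and 11 in WT mice, and the most in 1 mouse was 28, in an Axl KO mouse. It ranged from 0.146 to 5.28 CPM in Axl KO and from 0.212 to 0.378 CPM in WT mice (log2 fold change 2.35, SE 0.74, unadjusted p = 0.0044, adjusted p = 0.709 in the edgeR fit without a filter). Fstl3, a secreted inhibitor of myostatin, was at 0.573 ± 0.343 CPM in WT and 1.19 ± 0.374 CPM in Axl KO mice (mean ± SD, n = 5 each) (unadjusted p = 0.0349, adjusted p = 0.709 in the same edgeR fit). Wfikkn2, another inhibitor of myostatin, was at 0.363 ± 0.259 CPM in Axl KO and 0.724 ± 0.357 CPM in WT mice (SD, n = 5 each; unadjusted p = 0.0944, adjusted p = 0.709 in the same edgeR fit). Fst, follistatin, an inhibitor of myostatin that passed the filter, was at 5.25 ± 1.01 CPM in Axl KO and 5.17 ± 0.877 CPM in WT mice (SD, n = 5 each; log2 fold change 0.015, edgeR adjusted p = 0.992). The 4 genes were chosen after their values were seen. The edgeR fit without a filter gave 1539 of 23725 genes an unadjusted p under 0.05.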
